A study of Homo sapiens with 44 samples.

Results

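The apelin receptor gene APLNR and the genes of its peptide ligands, APELA and APLN, were followed through the differentiation of H1 human embryonic stem cells toward heart muscle. These 3 genes were taken by symbol from the 60499 gene identifiers of the deposited count table. They were chosen by their counts over all 12 groups, in which earlier results had shown a change of ligand and a timed receptor. Their levels and changes are therefore described here without a test between groups. All 3 were among the 22955 genes that passed the filter on low counts.

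H1 is an established pluripotent line, here a single line from WiCell, and each of the 44 libraries came from 1 culture well. Pluripotent cells were kept on the laminin LN-521, and all other groups were grown on LN-521 together with LN-221. Day 0 cells were in Nutristem medium. Cells of days 1 and 3 were in RPMI 1640 with insulin-free B27 and CHIR99021, which blocks the kinase GSK3 and so switches on Wnt signalling. Day 5 cells received IWP2, an inhibitor of Wnt production, in the same insulin-free medium. Days 7 and 9 were insulin-free without either inhibitor, and days 11, 14, 20, 30 and 90 were in CTS B-27 medium. Days 5, 7, 9 and 11 had 5 wells each, and the other 8 groups had 3. The series text gives 3 wells for day 11 where the labels give 5, and all 5 were used. Whether wells of a group came from separate differentiations is not stated, so every SD and p-value measures the spread between wells, which may be technical. No untreated wells of the same day are among the samples used here, so day and medium cannot be told apart where both differ. Days 1 and 3 shared a medium, as did days 7 and 9 and days 11 to 90. Within these sets, day and time spent in the medium cannot be told apart.

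APLNR is a G protein-coupled receptor of the cell surface. It has a pair of unrelated peptide ligands, apelin, encoded by APLN, and the hormone ELABELA (also called Toddler or apela), encoded by APELA. Both are made as secreted precursors and cut to shorter active forms. ELABELA is known from pluripotent human cells and from gastrulating embryos, where its receptor marks mesoderm and acts in the movement of heart precursors. Apelin is known from endothelium, heart and fat, where it acts on vessels and on the strength of the heartbeat.

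APELA (ENSG00000248329) lies on the plus strand of chromosome 4 from 164877004 to 164898965 in GRCh38. APLN (ENSG00000171388) lies on the minus strand of chromosome X from 129645259 to 129654937, and APLNR (ENSG00000134817) on the minus strand of chromosome 11 from 57233577 to 57237314. All 3 are annotated as protein coding, and 0 other genes of the tables overlap them in GENCODE release 29. The coding sequences of both ligands are shown because the ligands share a receptor while their precursors differ in length. The APELA coding sequence has 54 codons before its stop and lies in 2 exons (chr4:164877332-164877407 and chr4:164878920-164879008), and the capitals mark the last 32 codons, which encode the mature hormone. That of APLN has 77 codons, also in 2 exons (chrX:129654564-129654630 and chrX:129648626-129648792), and the capitals mark the last 13 codons, which encode apelin-13, a short active form. Both are read 5′ to 3′ along the mRNA, in the GENCODE 29 transcripts.
APELA: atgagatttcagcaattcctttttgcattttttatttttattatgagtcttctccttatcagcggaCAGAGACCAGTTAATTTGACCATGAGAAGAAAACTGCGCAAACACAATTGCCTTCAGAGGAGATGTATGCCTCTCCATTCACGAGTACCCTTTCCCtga
APLN: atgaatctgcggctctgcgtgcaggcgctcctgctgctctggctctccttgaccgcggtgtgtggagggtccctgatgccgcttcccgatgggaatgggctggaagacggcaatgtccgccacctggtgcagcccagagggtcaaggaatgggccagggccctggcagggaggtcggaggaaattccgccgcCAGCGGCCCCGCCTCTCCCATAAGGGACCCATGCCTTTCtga

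Total counts ran from 6937136 to 33498022 per library, so that 3 counts stood for 0.0919 to 0.41 CPM (counts scaled by TMM to a common library size, the unit of level from here on). Libraries were spread over 5 sequencing lanes in 1 batch, and RNA integrity numbers ran from 7.4 to 10. The lowest totals, 14148880 counts or fewer, were in 4 libraries: day 14 replicates 2 and 6, day 20 replicate 2 and day 30 replicate 10. The labelled state was checked with marker lists. The summed level of 6 pluripotency genes was 8100 to 8260 CPM in pluripotent wells and 13.6 to 26.9 CPM at day 90, while that of 6 cardiomyocyte genes went from 31.1–72.9 CPM to 15000–50700 CPM. Wells were not alike within every day. At day 11, 6 endoderm genes summed to 4510 and 8590 CPM in replicates 1 and 2 and to between 163 and 180 CPM in the other 3 wells. Day 9 replicate 2 had 6120 CPM for the same genes, against 503 to 1780 CPM in its group.

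APELA was the ligand gene of the early groups. Its level was highest in pluripotent cells, low at day 1, higher again from day 5 to day 9, and low from day 11 on. In pluripotent wells APELA stood at 413, 400 and 303 CPM (372 ± 59.9, mean ± SD, n = 3). At day 0 it was 155, 136 and 132 CPM (141 ± 12.5, n = 3), below every pluripotent well and 2.64 times lower in the mean. After 1 day with CHIR99021 the wells held 7.28, 4.66 and 7.97 CPM (6.64 ± 1.75, n = 3). The day 0 and day 1 wells lay far apart, with a ratio of means of 21.3 and a fitted log2 difference of -4.41 (SE 0.67).

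The second stretch of APELA expression spanned the days around IWP2. Day 3 wells gave 45.1, 13.6 and 12.4 CPM (23.7 ± 18.5, n = 3). All were above the day 1 wells, but replicate 1 carried much of the mean: the fitted log2 difference from day 1 was 1.83 (SE 0.61) with it and 0.97 without it. Day 5 wells gave 116, 61.9, 65.6, 69.0 and 118 CPM (86.0 ± 28.2, n = 5). Day 7 wells gave 73.5, 88.5, 69.4, 57.0 and 93.4 CPM (76.4 ± 14.7, n = 5). The ranges of days 5 and 7 overlapped, both lay above all wells of days 1 and 3, and the day 5 mean was 13 times the day 1 mean.

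From day 9 on, the scatter of APELA between wells of 1 day was wide at some days and narrow at day 11. At day 9 they gave 35.4, 37.1, 24.3, 66.5 and 89.0 CPM (50.4 ± 26.6, n = 5). At day 11 they gave 12.8, 9.64, 10.1, 9.66 and 8.67 CPM (10.2 ± 1.55, n = 5). Every day 11 well was below every day 9 well, and the means differed 4.96 times. The day 11 wells were close to each other for APELA even though their endoderm sums were not. At day 14 the wells gave 7.13, 8.37 and 37.8 CPM (17.8 ± 17.4, n = 3), and at day 20 they gave 3.38, 4.24 and 27.5 CPM (11.7 ± 13.7, n = 3). In each of these groups 1 well (day 14 replicate 6 and day 20 replicate 3) stood several times above the others. Day 30 wells gave 2.48, 7.26 and 1.11 CPM (3.62 ± 3.23, n = 3), and day 90 wells gave 1.7, 1.46 and 3.47 CPM (2.21 ± 1.1, n = 3), and these ranges overlapped.

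In order of mean level, APELA ran from pluripotent through day 0, 5, 7, 9, 3, 14, 20, 11, 1 and 30 to day 90, with a 168-fold ratio between the ends. Neighbours in that order were separated, with no overlap of wells, only between pluripotent and day 0, day 0 and day 5, and day 11 and day 1. The other neighbours did not differ beyond their spread. In these bulk samples, fewer cells that express a gene and less of its RNA per cell cannot be told apart.

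**Figure D1:**
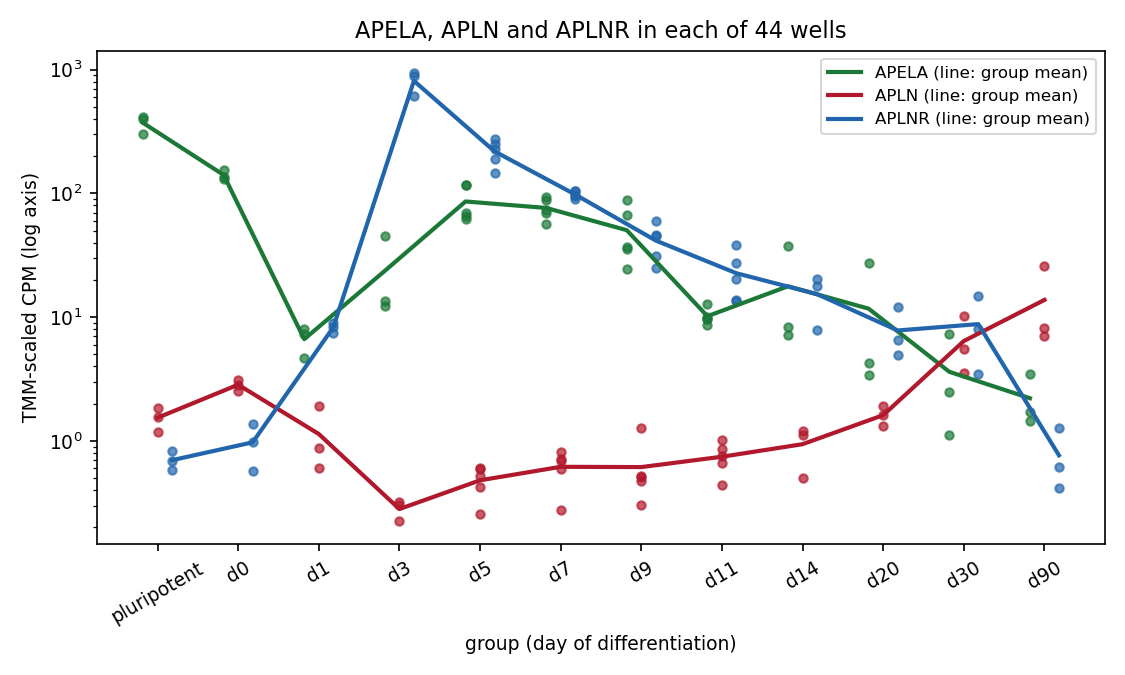
Level of APELA, APLN and APLNR in each of 44 wells (points, TMM-scaled CPM on a log axis) by group, with lines through the group means; heights of different genes are not comparable on this scale because it takes no account of length. APELA starts at 372 CPM and returns to 86.0 CPM at day 5, APLNR peaks at 813 CPM at day 3, and APLN is lowest at day 3 and highest at day 90.

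APLN had its highest levels in the last groups. It was detected at a low level in pluripotent cells, lowest at day 3 and highest at days 30 and 90. Pluripotent wells gave 1.85, 1.19 and 1.57 CPM (1.54 ± 0.328, n = 3), and day 0 wells 2.85, 3.13 and 2.55 CPM (2.85 ± 0.286, n = 3), all above the pluripotent wells. Day 1 wells gave 0.606, 1.93 and 0.872 CPM (1.14 ± 0.699, n = 3). They lay below day 0, and the fitted log2 difference of -1.32 (SE 0.47) became -1.94 without day 1 replicate 2, the highest of the 3. Day 3 wells gave 0.318, 0.223 and 0.302 CPM (0.281 ± 0.0506, n = 3), which rest on only 6 to 8 counts per library. The day 3 wells were below all day 1 wells, and the mean was 10.1 times lower than at day 0.

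From day 5 to day 14 APLN stayed low and rested on few counts. Wells of day 5 gave 0.426, 0.599, 0.257, 0.522 and 0.595 CPM (0.48 ± 0.143, n = 5). Wells of day 7 gave 0.716, 0.819, 0.682, 0.275 and 0.592 CPM (0.617 ± 0.208, n = 5). Wells of day 9 gave 0.303, 0.513, 0.471, 1.26 and 0.521 CPM (0.613 ± 0.371, n = 5). These 3 groups overlapped, and counts per library were between 6 and 32. Day 11 wells gave 0.859, 1.01, 0.439, 0.757 and 0.656 CPM (0.745 ± 0.216, n = 5), and day 14 wells 1.21, 1.11 and 0.499 CPM (0.94 ± 0.384, n = 3). At day 20 APLN was 1.61, 1.92 and 1.31 CPM (1.61 ± 0.3, n = 3), all above the wells of days 11 and 14 and overlapping the pluripotent wells.

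The largest step of the late increase of APLN lay between days 20 and 30, but the day 20 mean was already 5.74 times the day 3 mean. Day 30 wells gave 10.2, 3.51 and 5.51 CPM (6.42 ± 3.44, n = 3), all above every day 20 well, with a ratio of means of 3.98 and a fitted log2 difference of 2.02 (SE 0.48). Day 90 wells gave 6.99, 26.1 and 8.24 CPM (13.8 ± 10.7, n = 3). The ranges of days 30 and 90 overlapped, and day 90 replicate 4 alone was above 10.2 CPM. That well also had the highest cardiomyocyte sum of its day, 50700 CPM against 15000 and 19500 CPM; the part of this difference in the APLN level was not tested. The fitted log2 difference of APLN between days 90 and 9 was 4.48, and 3.63 without that well.

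By mean level the order of APLN was day 90, 30, 0, 20, pluripotent, day 1, 14, 11, 7, 9, 5 and 3, and the day 90 mean was 49.0 times the day 3 mean. Only day 30 and day 0, and day 0 and day 20, were neighbours without overlap of wells. All other neighbours did not differ beyond their spread.

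The balance of the ligands was compared within each library on the deposited TPM, which corrects for transcript length. In pluripotent cells APELA stood at 113 ± 32.7 TPM (SD, n = 3) and APLN at 0.293 ± 0.0839 TPM. The log2 ratio of APLN to APELA, with 0.1 TPM added to each, was -8.14 ± 0.39 there. It was -6.11 ± 0.14 at day 0 and -3.17 ± 0.94 at day 1 (n = 3 each). It was then lower again at day 5, at -7.04 ± 0.59 (n = 5). The ratio therefore did not move in one direction: APELA was low at day 1 and high again at day 5.

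From day 5 the group means of this ratio were -6.72 ± 0.41 at day 7, -5.96 ± 0.91 at day 9 and -3.72 ± 0.21 at day 11 (n = 5 each). Days 14 and 20 had -4.03 ± 1.92 and -2.51 ± 1.84 (n = 3 each). APLN exceeded APELA in 0 of the wells up to day 20. At day 30 the wells gave 1.23, -1.87 and 0.67, a mean of 0.01 ± 1.65. At day 90 they gave 1.04, 2.57 and -0.22, a mean of 1.13 ± 1.39. APLN was thus the more abundant ligand transcript in 2 of 3 wells at each of the last days, and the means lay within 1 SD of equal levels. Both transcripts were scarce by then, with APELA at 0.51 ± 0.291 TPM and APLN at 1.48 ± 1.4 TPM at day 90.

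**Figure D2:**
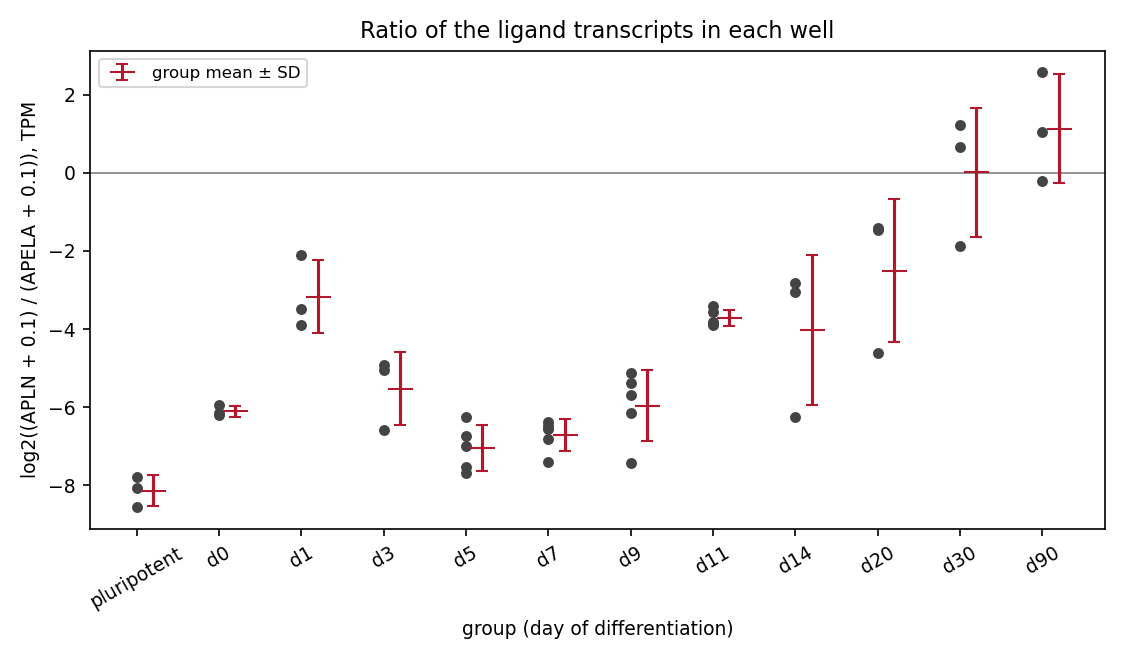
Log2 ratio of APLN to APELA (TPM, 0.1 added to each) in each well (grey points) with the group mean ± SD beside them (red), by group; the line at 0 marks equal levels. All wells up to day 20 lie below 0, and 2 of 3 wells lie above 0 at day 30 and at day 90.

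APLNR, the receptor gene, had a single sharp peak at day 3. Pluripotent wells gave 0.683, 0.827 and 0.583 CPM (0.698 ± 0.122, n = 3). Day 0 wells gave 0.973, 0.566 and 1.38 CPM (0.973 ± 0.408, n = 3). These ranges overlapped and rest on 16 to 40 counts per library. At day 1 the wells gave 7.48, 9.0 and 8.34 CPM (8.27 ± 0.762, n = 3), all above day 0, with a ratio of means of 8.5 and a fitted log2 difference of 3.08 (SE 0.46). At day 3 they gave 615, 938 and 885 CPM (813 ± 173, n = 3), from 15491 to 25194 counts. That is 98.3 times the day 1 mean and 1170 times the pluripotent mean, and the highest well of any other group, at day 5, had 274 CPM. In TPM the receptor transcript at day 3 was 197 ± 50.9, beside 8.77 ± 6.55 for APELA and 0.0633 ± 0.0115 for APLN in the same libraries. The receptor peak thus fell between the high APELA level of pluripotent cells and its second maximum at day 5, on the day of the lowest APLN mean.

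After day 3 the APLNR level stepped down from group to group. Day 5 wells gave 230, 190, 147, 253 and 274 CPM (219 ± 51.0, n = 5). Day 7 wells gave 104, 89.6, 95.0, 96.6 and 105 CPM (98.1 ± 6.48, n = 5). Day 9 wells gave 45.9, 24.9, 60.3, 45.6 and 31.3 CPM (41.6 ± 13.9, n = 5). Wells of days 3, 5, 7 and 9 did not overlap at any step, and the fitted log2 steps were -1.89, -1.16 and -1.24. In these same days APELA was at its second maximum, so the receptor was on the way down while this ligand transcript was up. TPM put the levels of both within reach of each other at day 7, at 16.5 ± 6.15 for APLNR and 21.6 ± 10.6 for APELA.

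The later APLNR levels were lower and more scattered. Day 11 wells gave 27.2, 38.3, 13.5, 13.7 and 20.5 CPM (22.6 ± 10.4, n = 5), and day 14 wells 17.7, 20.4 and 7.93 CPM (15.3 ± 6.55, n = 3). Day 20 wells gave 6.48, 12 and 4.93 CPM (7.82 ± 3.74, n = 3), and day 30 wells 14.9, 3.44 and 8.01 CPM (8.78 ± 5.77, n = 3). Each of these groups overlapped the next. Day 90 wells gave 1.26, 0.417 and 0.616 CPM (0.763 ± 0.438, n = 3) from 6 to 28 counts, below every day 30 well. The ranges of day 90, pluripotent and day 0 overlapped, and day 90 replicate 4 was the lowest well of all on CPM. On TPM, day 90 replicate 5 was lowest (0.05). The day 30 mean was 11.5 times the day 90 mean, with a fitted log2 difference of -3.47 (SE 0.50).

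In the order of mean APLNR level, day 3, 5, 7, 9, 11, 14, 30, 1, 20, 0, 90 and pluripotent, wells did not overlap between days 3 and 5, days 5 and 7, days 7 and 9, and days 20 and 0. The other neighbours did not differ beyond their spread.

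Some wells stood apart for more than 1 of the genes. Day 14 replicate 6 had the highest APELA of its day (37.8 CPM), the lowest APLNR (7.93 CPM), the lowest APLN (0.499 CPM) and the lowest sum of 10 endothelial genes, 299 CPM against 398 and 458 CPM. Day 20 replicate 3 showed the same order, with 27.5 CPM of APELA, 4.93 CPM of APLNR, 1.31 CPM of APLN and an endothelial sum of 128 CPM against 263 and 330 CPM. The endothelial sum is not particular to endothelial cells. It was 312 to 319 CPM in pluripotent wells and 386 to 416 CPM at day 0, where KDR had 180 ± 18.3 and FLT1 136 ± 1.89 CPM. In day 9 replicate 2, the well with the highest endoderm sum, APLNR was highest (60.3 CPM) and APELA lowest (24.3 CPM) of the 5 wells. Day 11 replicates 1 and 2, with the high endoderm sums, had the highest APLNR values of their day. Day 20 replicate 3 went the other way, with the highest endoderm sum of its day (3900 CPM, others 1750 and 930) and the lowest APLNR. The high-APELA wells of days 14 and 20 also had the highest pluripotency sums of their day, 208 CPM against 153 and 163, and 134 CPM against 63.7 and 68.7. The same well was highest for both in pluripotent cells (sums of 8260, 8250 and 8100 CPM) and at days 11 and 30, but in no other group. Day 3 replicate 1 had the highest APELA of its day (45.1 CPM) and a sum of 2480 CPM, against 2490 and 2700 CPM. Of the summed genes, LIN28A alone had 1700 ± 38.6 CPM at day 3. POU5F1 had 2.79 ± 1.48 CPM at day 9, where the sums were 462 to 538 CPM. Day 90 replicate 4 had the lowest APELA (1.46 CPM) and the highest sum (26.9 CPM). These orders of wells are on CPM. On TPM, replicate 2 had the highest APELA of the pluripotent wells (132.19) and replicate 2 the lowest of day 90 (0.26). At day 9, APLNR was highest in replicate 3 on TPM (9.8). The part of pluripotent, endoderm or endothelial cells in these values was not tested.

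Counts were also set out by sequencing lane. Day 3 libraries were in lanes 1, 2 and 3 and held 58.7%, 71.4% and 76.1% of the APLNR counts of those lanes. In lanes 4 and 5, which held no day 3 library, day 5 libraries held 62.7% and 53.7%. Pluripotent wells had 17 counts in lane 1, 27 in lane 4 and 16 in lane 5, and day 0 wells had 29 in lane 1, 40 in lane 3 and 17 in lane 4. The part of the lane in these low counts was not tested. Within single lanes, APLNR at day 3 exceeded day 1 by 6.36 to 6.73 on the log2 scale in 3 lanes. For APELA the log2 difference of day 1 from day 0 was -4.41 and -4.05 in the 2 lanes that held both. The difference of APELA between days 9 and 3 was 2.71 in lane 2 and -0.35 in lane 1, where day 3 replicate 1, the highest APELA well of its day, lies. Over all lanes the fitted difference was 1.09, and 1.96 without that well. For APLN it was 1.22 in lane 2 and -0.07 in lane 1.

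The receptor peak was set beside genes of the cells that are known to carry it. MESP1, a transcription factor of nascent cardiac mesoderm, had 23.8 ± 6.61 CPM at day 3 (n = 3) and was at or below 1.31 CPM in the mean of every other group. PDGFRA, a growth factor receptor of mesoderm, stood at 617 ± 114 CPM at day 3 and was highest at day 5, at 1120 ± 286 CPM (n = 5). The other 4 of 6 listed streak and early mesoderm genes fell between days 1 and 3. TBXT, MIXL1, GSC and EOMES changed by log2 values of -4.0, -3.13, -3.07 and -1.61. CDH5 and PECAM1, junction proteins that define endothelial cells, had their highest means at day 9, at 54.2 ± 10.5 and 23.8 ± 1.75 CPM (n = 5). At the day 3 maximum of APLNR they were at 0.907 ± 0.268 and 1.69 ± 0.333 CPM (n = 3). The other genes of the endothelial list were not all low at day 3. KDR had 311 ± 57.6, FLT1 71.2 ± 15.8 and EGFL7 34.2 ± 1.45 CPM. TEK lay between these and TIE1, EMCN, ERG and ESAM, which had means of 1.09 CPM or less. By day 90 CDH5 and PECAM1 were at 0.303 ± 0.204 and 0.195 ± 0.134 CPM. APLNR was also near its lowest at day 90, and APLN was at its highest there. From day 11 to day 90 the means of APLNR, CDH5 and PECAM1 were all below their day 9 means. Among wells of 1 day, day 11 replicates 1 and 2 had the highest PECAM1 (13 and 14.9 CPM, others 6.87 to 7.35), CDH5 and APLNR. Day 14 replicate 3 was highest and replicate 6 lowest for all 3 genes, and day 20 replicate 3 was lowest for all 3. Replicate 10 of days 7 and 9 was also lowest for all 3. Other days differed. At day 5 replicate 3 had the highest PECAM1 and CDH5 (11.4 and 27.9 CPM) and the lowest APLNR (147 CPM). Day 5 replicate 4 had the lowest PECAM1 and CDH5 (0.739 and 2.83 CPM) beside 253 CPM of APLNR. Day 9 replicate 2 was highest for APLNR (60.3 CPM) but not for PECAM1 or CDH5 (22.6 and 51.4 CPM). At day 30 replicate 3 had the highest PECAM1 (20.3 CPM, others 1.91 and 2.73) and the middle APLNR value. These orders are on CPM. On TPM, APLNR was highest in replicate 2 at day 14 (4.59), replicate 3 at day 9 (9.8) and replicate 3 at day 30 (2.08).

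**Figure D3:**
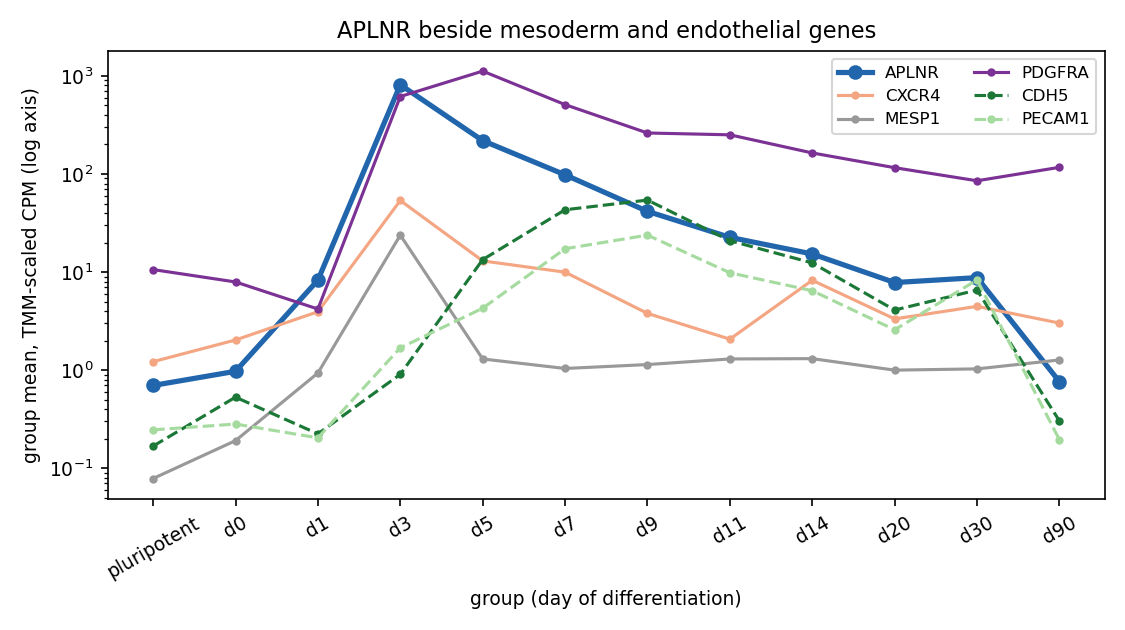
Group means (TMM-scaled CPM, log axis) of APLNR, of CXCR4, MESP1 and PDGFRA, and of the endothelial genes CDH5 and PECAM1 (dashed), by group. APLNR, MESP1 and CXCR4 peak at day 3, PDGFRA at day 5, and CDH5 and PECAM1 at day 9.

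The genes with the most similar profiles were sought among 13276 protein-coding genes by Pearson correlation of the 12 group means of log2(CPM + 1). These values describe profiles that share libraries and scaling, and they carry no p. Closest to APELA were TAC3 (r = 0.951), HLA-DPB1 (0.949), TJP3 (0.943), B3GALT1 (0.940) and SHISA5 (0.938). Closest to APLN were FRMD5 (0.967), SCX (0.963), P2RX1 (0.960), NAV3 (0.960) and LURAP1 (0.959). P2RX1, an ATP-gated ion channel, went from 0.153 CPM at day 3 to 51.5 CPM at day 90. Closest to APLNR were FAM89A (0.979), ZNF611 (0.974), FSHR (0.966), UBE2R2 (0.961) and CHST11 (0.958). FSHR, another G protein-coupled receptor, was at 0.0641 CPM at day 1 and 17.4 CPM at day 3. The names depend on the measure. With Spearman correlation 3 of the 5 names were kept for APELA and 0 for both APLN and APLNR, and on TPM 3, 1 and 2 were kept.

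Genes around the receptor were tested in 4 steps: day 1 against day 0, day 3 against day 1, day 9 against day 3 and day 90 against day 9. A list of 26 genes held 9 enzymes that cut precursor peptides or break down apelin, 12 transducers of the receptor (G protein alpha subunits, arrestins and receptor kinases) and 5 effectors named in other systems. A gene was called when its adjusted p from edgeR's quasi-likelihood test was under 0.05 and its log2 change at least 1. Of all 22955 genes, 13.5% were called at the first step, 3.86% higher and 9.66% lower. Of these calls 28.5% were higher, against 49.4% of the calls by limma on log2(TPM + 1). In the list 5 of 26 were called, 2 higher and 3 lower, a share of 19.2%. Most of the list, 21 genes, did not pass.

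Between days 0 and 1 the largest change of the list was in PCSK1, a proprotein convertase of neuroendocrine secretory granules. It rose from 2.84 ± 0.454 to 63.5 ± 27.2 CPM (log2 4.48, SE 0.69, adjusted p = 6.8e-06, n = 3 each). ARRB1, which encodes a beta-arrestin that binds activated receptors, rose from 7.51 ± 0.672 to 19.9 ± 1.65 CPM (log2 1.40, adjusted p = 3.1e-05). NOS3, the endothelial nitric oxide synthase, fell from 4.91 ± 0.811 to 1.82 ± 0.142 CPM. PCSK5, another convertase, fell from 21.9 ± 1.04 to 9.09 ± 0.409 CPM (adjusted p = 0.046). MME, the peptidase neprilysin, fell from 34.1 ± 0.724 to 13.3 ± 0.691 CPM (adjusted p = 0.047). The calls of PCSK5 and MME were lost when any of the 6 wells was left out, so the count of 5 became 3; MME also did not pass with a lane term, and limma on log2(TPM + 1) called neither of them nor NOS3. FURIN, the convertase of nearly all cells that can cut both ligand precursors, was at 34.2 ± 2.27 CPM at day 0 and 31.4 ± 1.34 CPM at day 1.

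Between days 1 and 3, where APLNR reached its peak, 17.8% of all genes were called, 11.0% higher and 6.8% lower. In the list 7 of 26 (26.9%) were called, 6 of them higher. FURIN rose from 31.4 ± 1.34 to 109 ± 10.3 CPM (log2 1.80, SE 0.21, adjusted p = 2.1e-08). PCSK1 fell from 63.5 ± 27.2 to 0.744 ± 0.224 CPM (log2 -6.41, adjusted p = 3.5e-08), so that its high level was seen at day 1 alone among the 12 groups. PCSK2, a further granule convertase, rose to 4.2 ± 3.38 CPM, and PRCP, a carboxypeptidase that can trim apelin, rose from 64.5 ± 3.41 to 140 ± 8.26 CPM. Among the transducers GRK5, a kinase that marks active receptors for arrestin, rose from 2.89 ± 0.384 to 19.6 ± 1.29 CPM (log2 2.76, adjusted p = 4.1e-09). GNAI2, an inhibitory G protein subunit, rose from 139 ± 4.99 to 285 ± 13.8 CPM (log2 1.03, adjusted p = 3.5e-06); its call was lost without day 3 replicate 2. NOS3 rose to 6.65 ± 0.592 CPM. Limma on log2(TPM + 1) did not call PCSK2 or NOS3.

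Between days 3 and 9 the share of all genes called was 21.2%, 12.3% higher and 8.88% lower. Of these calls 58.2% were higher, but only 15.9% of those by limma on log2(TPM + 1), a scale on which the median gene shifted by -0.64. The list had 8 of 26 called (30.8%), 6 higher and 2 lower, and 0 of its 12 transducers passed. MEF2C, a cardiac transcription factor, rose from 0.998 ± 0.229 to 104 ± 21.7 CPM (log2 6.70, SE 0.49, adjusted p = 2e-13). KLF2, a transcription factor known to respond to blood flow and to APLNR in other systems, rose from 0.104 ± 0.0844 to 5.97 ± 1.25 CPM (log2 5.80, adjusted p = 2.8e-10). NOS3 rose again, to 17.5 ± 2.78 CPM. PCSK6 rose to 28.3 ± 3.26 CPM and PCSK5 to 30.9 ± 18.5 CPM, the latter not without day 3 replicate 2 or day 9 replicate 2. PCSK2 and PCSK1 fell to 0.101 ± 0.0882 and 0.0444 ± 0.0824 CPM. On log2(TPM + 1), limma did not call NOS3, PCSK1, PCSK5 or PCSK6.

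Between days 9 and 90, 23.9% of all genes were called, 11.9% higher and 12% lower. Of these calls 49.9% were higher, against 19.8% of those by limma on log2(TPM + 1), where the median gene shifted by -0.54. In the list 7 of 26 (26.9%) were called, 1 higher and 6 lower, a share close to that of all genes. FURIN fell from 145 ± 11.4 to 56.2 ± 16.6 CPM (log2 -1.36, SE 0.19, adjusted p = 4.3e-07, n = 5 and 3). PCSK6, PCSK5 and PRCP fell by log2 values of -1.82, -1.45 and -1.11. NOS3 fell to 3.48 ± 0.607 CPM (log2 -2.32, adjusted p = 1.1e-07), and ARRB2 fell from 14.5 ± 2.00 to 6.94 ± 1.44 CPM. MME rose to 34.2 ± 24.3 CPM, with wells that overlapped those of day 9. The calls of ARRB2 and MME were each lost in 2 of the 8 fits that left out a well: ARRB2 without day 9 replicate 4 or day 90 replicate 2, MME without day 90 replicate 2 or 5. ARRB2 was also lost with RLE scaling and DESeq2, and MME with a fit of the compared groups only and limma. Of 10 endothelial marker genes, 7 rose and 0 fell between days 3 and 9, and 10 fell between days 9 and 90. Of all genes, 21.2% and 23.9% were called at these steps.

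**Figure D4:**
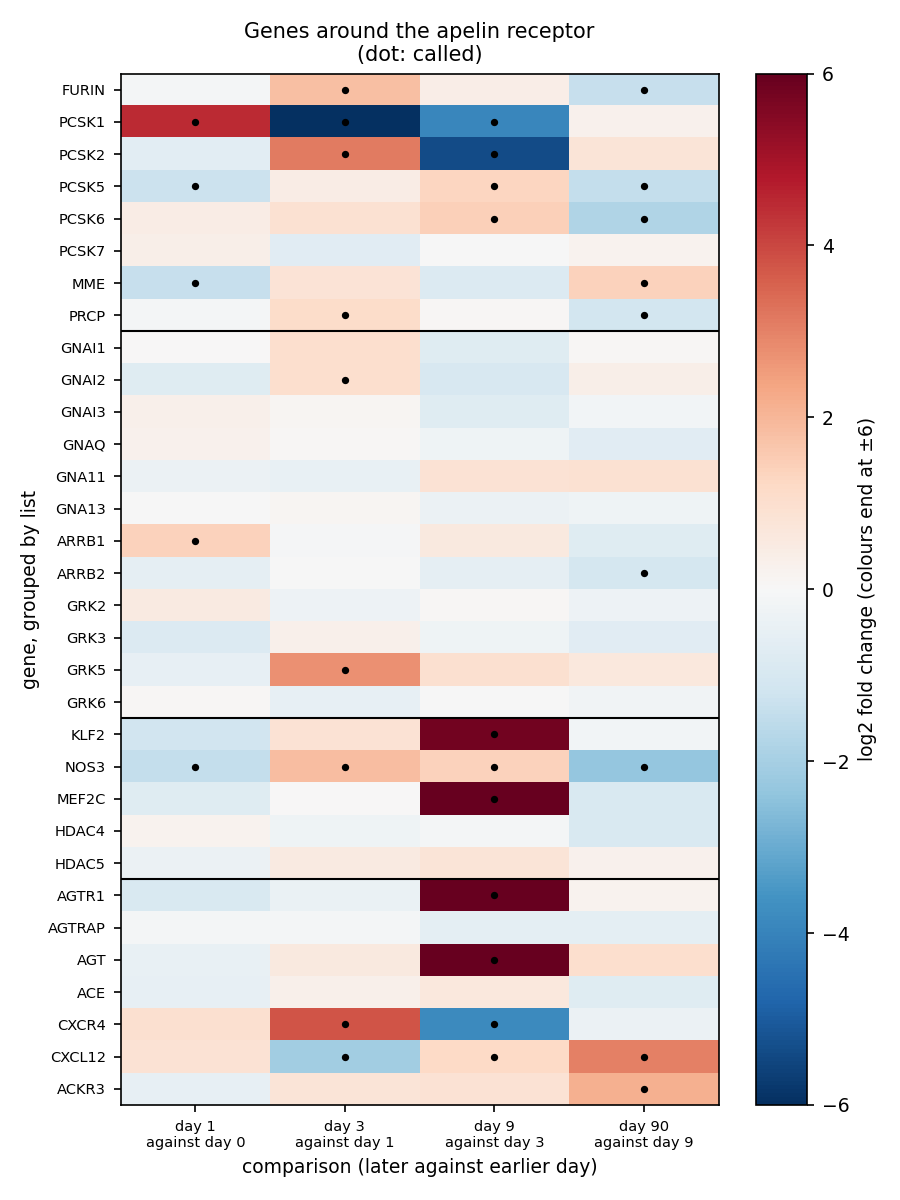
Log2 fold change (colour) of genes around the apelin receptor in the 4 steps (columns), with black lines between the lists of processing enzymes, transducers, effectors and related receptor systems; dots mark called genes. Calls are spread over the lists and directions, and the transducers hold 1 call or more at each step but day 9 against day 3.

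Related receptor systems were listed because APLNR is close in sequence to the angiotensin receptor and because the chemokine receptor CXCR4 is another receptor of migrating mesoderm. Of 8 genes 7 could be tested, and 0 were called between days 0 and 1, where 13.5% of all genes were. At the next 3 steps 28.6%, 57.1% and 28.6% of the 7 were called, against 17.8%, 21.2% and 23.9% of all genes. CXCR4 rose from 3.94 ± 2.36 CPM at day 1 to 53.7 ± 17.4 CPM at day 3 (log2 3.77, adjusted p = 0.00091), its highest mean. Its ligand gene CXCL12 fell over the same step, from 43.8 ± 3.98 to 10.4 ± 0.646 CPM (log2 -2.07, adjusted p = 1.1e-05). By day 9 CXCR4 had fallen to 3.79 ± 2.24 CPM, and CXCL12 had risen to 24.0 ± 9.24 CPM, though its call was lost without day 9 replicate 2 and with limma on log2(TPM + 1). AGTR1, the angiotensin receptor gene, had at most 2 counts in day 3 libraries and 7.74 ± 0.964 CPM at day 9, at least 64.9-fold higher than the highest level that 3 counts stand for in a day 3 library. AGT, the angiotensin precursor, rose to 33.1 ± 41.3 CPM with a wide spread. At day 90 CXCL12 reached 196 ± 9.73 CPM and ACKR3, its scavenger receptor, 29.3 ± 10.3 CPM, and both passed the test against day 9 (log2 3.03 and 2.11).

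APLN is known as a gene that responds to low oxygen through the transcription factor HIF1, and 13 other known hypoxia targets were set beside it. Between days 0 and 1, when APLN was lower in every well, 10 of the 13 fell and 1 rose. That is a share of 84.6% called, against 13.5% of all genes, with a median log2 change of -1.56 against -0.03. EGLN3, an oxygen-sensing hydroxylase, fell from 67.8 ± 5.42 to 11.5 ± 0.649 CPM (log2 -2.56, adjusted p = 4.2e-08). ANKRD37 and ADM, the latter encoding the vasodilator adrenomedullin, fell by log2 values of -2.22 and -2.11. Of the 10, SLC2A1 was lost without day 1 replicate 1 or 2 and with limma on TPM, and NDRG1 and P4HA1 with limma. PDK1, a kinase that holds back pyruvate oxidation, was the 1 that rose, from 120 ± 7.43 to 273 ± 40.2 CPM. Between days 1 and 3 the list and APLN parted: 9 of 13 rose and 0 fell, while APLN reached its lowest level. The share called was 69.2%, against 17.8% of all genes (median log2 1.50 against 0.07). NDRG1 rose from 2.59 ± 0.824 to 24.9 ± 8.04 CPM (log2 3.26) and P4HA1 from 50.5 ± 10.2 to 262 ± 35.2 CPM (log2 2.37). Of the 9, ADM was lost in 4 of 6 fits that left out a well (day 1 replicate 1 or 2, day 3 replicate 1 or 3) and with limma on TPM.

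Between days 3 and 9, 1 of the 13 was called (7.69%, against 21.2% of all genes). It was BNIP3, which fell (not without day 3 replicate 3), while the median log2 change was -0.13. Between days 9 and 90, 7 of 13 rose and 0 fell (53.8%, against 23.9% of all genes). The median log2 change was 1.03 against -0.02, in the same step in which APLN went from 0.613 ± 0.371 to 13.8 ± 10.7 CPM. CA9, a carbonic anhydrase, rose from 0.226 ± 0.152 to 13.8 ± 10.1 CPM (log2 5.87, adjusted p = 2.7e-11). EGLN3 rose from 23.2 ± 3.49 to 206 ± 54.6 CPM (log2 3.15, adjusted p = 1.7e-12), and BNIP3 rose by a log2 value of 1.67. Of the 7, ADM did not pass with a replicate block, a lane term, limma on TPM or without day 9 replicate 2 or day 90 replicate 4. ANKRD37 was lost with limma and without day 90 replicate 4, and LDHA with limma. APLN and the list therefore moved in the same direction in 2 of the 4 steps. Oxygen was not measured, and a part of it in these levels was not tested.

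**Figure D5:**
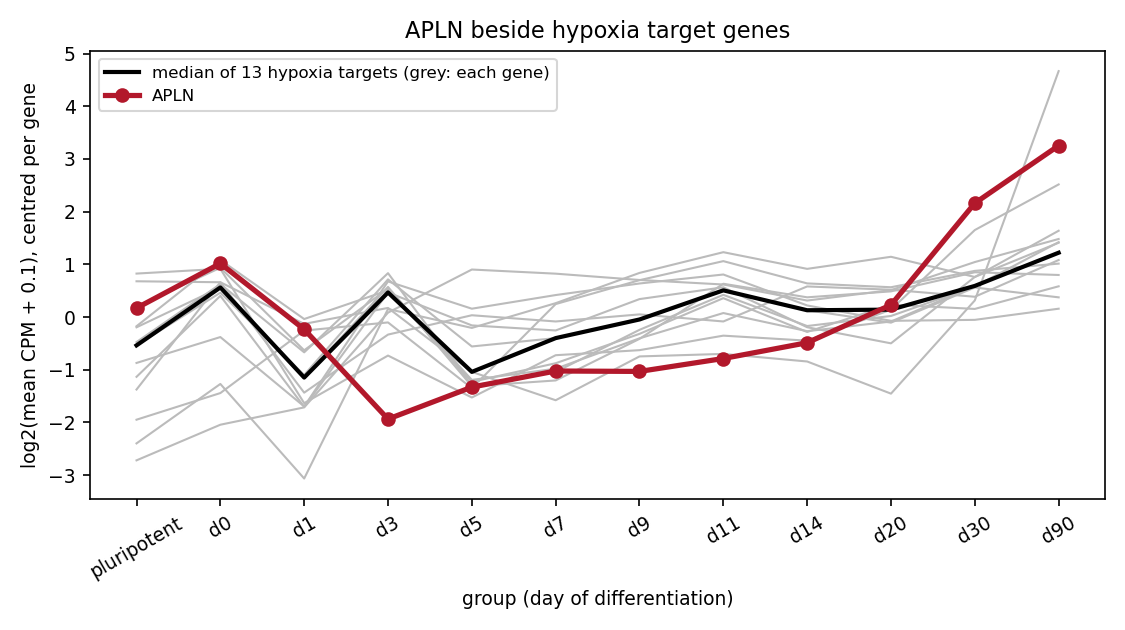
Group means on the scale log2(CPM + 0.1), centred for each gene on its own mean over the 12 groups, for APLN (red), each of 13 hypoxia targets (grey) and their median (black). APLN and the median are both lower at day 1 than at day 0 and both high at day 90, and they part at day 3.

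The APLN promoter is shown because HIF1 is known to bind short sites with the letters GCGTG or ACGTG. Each was searched on both strands in the 250 bases before the gene's start in the RefSeq table for GRCh38.p14, which held 2 of the 3 genes (APLN and APELA) and 35116 promoters in all. The APLN window holds GCGTG 2 times and ACGTG 0 times, and the capitals mark the 2 matches, the first of them on the strand opposite to the gene. Windows with GCGTG make up 32.2% of all promoters and windows with ACGTG 18.5%. In the APELA window ACGTG was found 1 time and GCGTG 0 times. A match of these letters describes the sequence and shows no binding.
APLN promoter, chrX:129654957-129655206, minus strand: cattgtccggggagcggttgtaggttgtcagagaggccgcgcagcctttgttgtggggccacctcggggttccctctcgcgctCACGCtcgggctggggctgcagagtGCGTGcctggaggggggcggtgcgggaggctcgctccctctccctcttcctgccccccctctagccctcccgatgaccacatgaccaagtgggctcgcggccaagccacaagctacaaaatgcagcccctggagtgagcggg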

How the data were processed

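RNA was measured in 44 wells of H1 cells. Per the labels' protocols, stranded total-RNA libraries were sequenced as 150 bp paired-end reads. The submitters' processing notes name cutadapt, STAR 2.5.2b, RSEM 1.2.31 and the hg38 build. The annotation release and the use of strand in counting are not given in the sources used here. The authors deposited estimated counts per gene, unscaled, of which 93.8% are whole numbers, and TPM, which are scaled for length. The deposited RNA integrity score and lane of each library were used as checks.

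Estimated counts were rounded and filtered with filterByExpr (minimum count 10), which left 22955 genes. TMM scaling and the quasi-likelihood fit of edgeR 4.0.16 (R 4.3.3) used all 44 libraries with 1 mean per group. Adjusted p-values (Benjamini-Hochberg) run over all tested genes. The fit was tested on simulated data. Symbols and coordinates come from GENCODE release 29, which holds 56769 of the 60499 identifiers.

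The 3 genes and the lists were chosen with earlier results of these data known. From each list and step, up to 3 called genes are named in each direction, by size of change. FURIN at day 1, MESP1, PDGFRA, CDH5, PECAM1, the marker genes given beside them, P2RX1 and FSHR were named after their values were seen. The values of 1 gene of the processing list are not reported here. Likeness needed a highest group mean of at least 5 CPM. Alternatives were DESeq2 1.42.0, RLE scaling, no filter, limma 3.58.1 on log2(TPM + 1), a lane term, a replicate block, the compared groups only and each well left out.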

Additional observations from a re-analysis of the deposited data

Results flagged for a closer look

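The level of APLN at day 9 was set apart by 1 well. Replicate 3 had 1.26 CPM, and the other 4 wells had 0.303 to 0.521 CPM, a gap that takes up more of the group's range than Dixon's limit for 5 values allows. The 3 genes were examined in the 4 groups of 5 wells, 12 sets in all, and chance flags about 1 in 20. This screen was run on CPM and not on a log scale, and it compares no groups. The value rests on 32 counts, against 8 to 16 in the other wells. Without this well the log2 difference of APLN between days 9 and 3 was 0.68 instead of 1.11.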

How the results depend on the processing

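The direction of the changes of APELA, APLN and APLNR in the 4 steps was kept under all alternatives run (14 in each of the first 2 steps, 16 in each of the others). The setting without the 4 shallowest libraries, counted among these, left the wells of the compared days unchanged. Most differences in size came with limma on log2(TPM + 1). That scale adds 1 TPM to each value, so log2 differences between levels well below 1 TPM come out small on it. Group means of APLN were 0.0633 to 0.523 TPM up to day 20, and APLNR had 0.0767 TPM at day 90. The part of the added TPM in the values below was not tested. APELA was -3.55 at day 1 against day 0 and -3.11 at day 90 against day 9. APLN was -0.31, -0.21, 0.05 and 1.04 in the 4 steps. APLNR was 1.2, 6.11 and -2.74 at day 1, day 3 and day 90. That setting called 974, 1717 and 2787 genes in the first, second and last step and 2 genes of the 26-gene list in the first (5 in the count fit). Of its calls 49.4%, 66.6%, 15.9% and 19.8% were higher in the 4 steps, against 28.5%, 61.9%, 58.2% and 49.9% in the count fit. On TPM the median of 5029 well-detected genes (mean TPM 10 or more) shifted by 0.17, 0.11, -0.64 and -0.54 in the 4 steps, and with RLE scaling by at most 0.08; the cause was not tested.

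Leaving out each well in turn gave 3 called list genes in all 6 fits for day 1 against day 0. APLN then ranged from -1.94 to -1.02, from -2.30 to -1.38 and from 0.68 to 1.28 in the first 3 steps, where -1.94 and -1.38 were without day 1 replicate 2 and 0.68 without day 9 replicate 3, and from 3.63 to 4.91 in the last. APLNR at day 90 against day 9 ranged from -6.30 (without day 90 replicate 2) to -5.44. APELA at day 9 against day 3 was 1.09, and 1.96 without day 3 replicate 1. With 1 TPM added, the ratio of APLN to APELA at day 30 turned to -0.06; with 0.01 TPM it was 0.04, and at day 90 the values were 0.59 and 1.27.

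Same-numbered wells deviated with correlations from -0.0165 to 0.155, so the numbers were not taken to pair the wells. With a replicate block the 3102, 4093, 4870 and 5485 calls became 3210, 4221, 4911 and 5548, and APLNR was 3.06, 6.62, -4.13 and -5.77. Without the 4 shallowest libraries, a choice made after seeing the data, 3565, 4515, 5259 and 5848 genes were called, and the list had 5, 7, 8 and 7 calls, as before. These libraries are of days 14, 20 and 30. No compared well was left out, so this setting could not test depth in the compared wells. Depth limits APLN from day 3 to day 14 and APLNR before day 1 and at day 90, which rest on 6 to 40 counts per library. Counts of APLN were also few in pluripotent cells (39 to 46), at day 1 (18 to 60) and at day 20 (14 to 42). APELA had 24 to 93 counts at day 30 and 21 to 62 at day 90, which limits the ligand ratio there.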
